A study of Mus musculus with 6 samples.

Results

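Collagen genes are the mouse protein-coding genes named Col, a number, a and a number, and 44 of the 21627 protein-coding genes on chromosomes 1 to 19 and X met this rule. Each peak of open chromatin went to the protein-coding gene whose span was nearest to its summit, within 100 kb, and the 44 genes took 329 to 355 of the 65462 strongest peaks of each library. The peaks mark open chromatin by ATAC-seq, an assay of where a transposase can reach the DNA, in bone marrow mesenchymal stem and progenitor cells (MSPCs). These were sorted by tdTomato from female mice of genotype Lepr-Cre;LSL-tdTomato+/-, so both groups carried the Cre driver, which acts in leptin receptor lineage cells, and the reporter. The mice were 8 to 10 weeks old when treated. The DOX group (3 libraries) had received 4 intravenous injections of 5 mg/kg doxorubicin at intervals of 1 week, and the PBS group (3 libraries) 4 injections of phosphate-buffered saline. Marrow was taken 8 weeks after treatment. The labels call the libraries biological replicates without giving the mice in each, and p-values cover only the spread among the libraries.

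Collagens are triple-helical proteins of the extracellular matrix. Fibrillar collagens form the cross-striated fibres of bone, cartilage, skin and vessel walls; network collagens form the sheets of basement membranes and related lattices; FACITs (fibril-associated collagens with interrupted triple helices) sit on the surface of fibrils. Marrow stromal cells of the leptin receptor lineage can give rise to osteoblasts, which lay down type I collagen as the organic part of bone. By class there were 11 fibrillar genes, 9 network genes, 9 FACIT genes and 15 others: 7 of the beaded filament and von Willebrand A group, 4 transmembrane collagens, 2 multiplexins, and Col7a1 and Col26a1.

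The deposited lists held 65462 to 100642 peaks on the chromosomes used, and the background of the peak caller was 0.558 to 1.27 fragments per position in PBS and 1.67 to 2.22 in DOX. Depth and treatment cannot be told apart, and the lists were therefore cut to equal length. PBS replicate 3 was the shallowest library and set that length. All 10 MSPC markers examined had a peak at a gene start or end in every library, against 6 of 10 osteoblast markers (Bglap, the osteocalcin gene, had none), 4 to 5 of 10 chondrocyte markers (Acan had none), 1 to 2 of 10 endothelial markers (Cdh5 and Pecam1 had none) and 2 to 3 of 10 blood markers (Ptprc had none).

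Open chromatin at collagen genes was spread very unevenly over the family. A peak touched the 1 kb around the gene start in all 6 libraries in 24 of the 44 genes (54.5%), and the share over all protein-coding genes was 57.8%. Another 15 genes had none in any library, and 5 had one in some libraries. Per library the number was 27, 26 and 26 (PBS) against 26, 28 and 25 (DOX), so the groups overlapped. The start was taken from a RefSeq promoter table for 35 members. For Col1a1, Col2a1, Col4a3, Col5a2, Col9a3, Col12a1, Col14a1, Col22a1 and Col26a1 a peak at either end of the gene span was counted instead. The median collagen gene had a mean of 6.17 peaks, and the median of all genes was 1.17. Collagen genes are long, with a median span of 114.4 kb against 17.3 kb for all genes: they make up 0.203% of genes, 0.519% of gene span and 0.55% to 0.597% of assigned peaks.

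**Figure D1:**
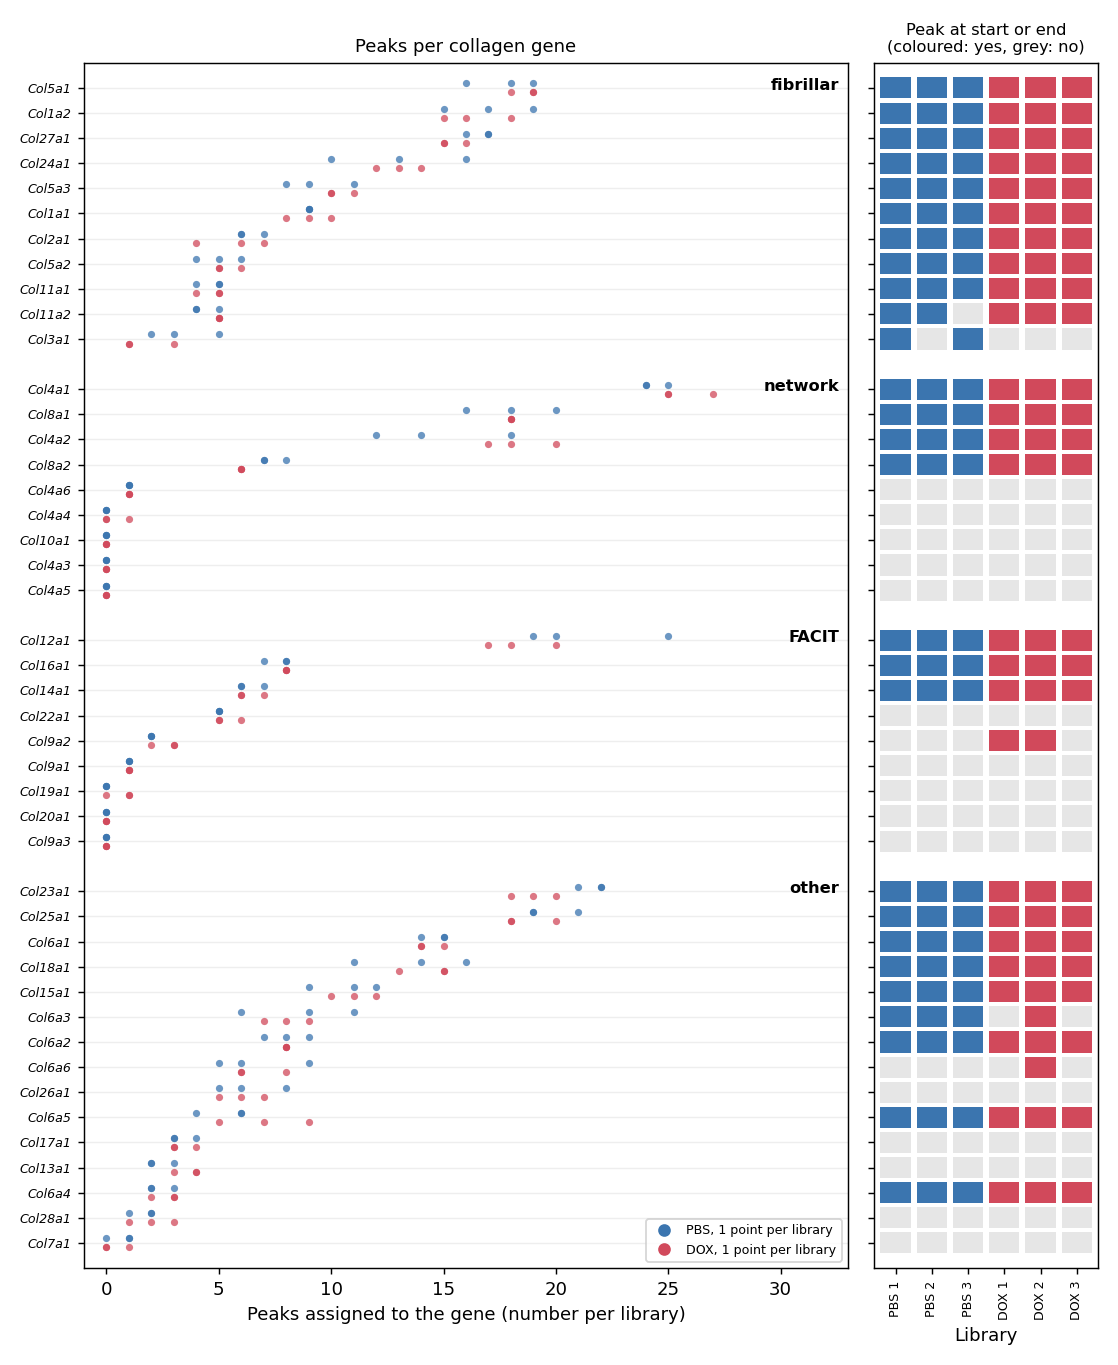
Left, the number of peaks assigned to each of the 44 collagen genes, with 1 point for each library (blue PBS, red DOX), by class; right, whether a peak touched the 1 kb around the gene start, or around either end for the 9 genes without a start in the table. Col4a1 has the most peaks, 24 to 27 in each library, while Col4a3, Col4a5, Col9a3, Col10a1 and Col20a1 have none.

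All 11 fibrillar genes had a peak at the start in at least 2 libraries, and 9 had one in all 6. Type I collagen, the main protein of bone, is made of the chains of Col1a1 and Col1a2. Col1a1 (gene 12842, chromosome 11, 94936224 to 94953042, mm10) had 9, 9 and 9 peaks (PBS) against 8, 9 and 10 (DOX). Col1a2 (gene 12843, chromosome 6, 4505618 to 4541543) had 17, 15 and 19 (PBS) against 18, 16 and 15 (DOX). In both genes the groups overlapped, and most of their peaks lay outside the gene. Of 9 union regions of Col1a1, made by merging overlapping peaks of all libraries, 8 were held by all 6 libraries, and 7 of the 9 lay on the side of the span with the lower coordinates, at 1472 to 22715 bp. Col1a2 had regions up to 97682 bp before its start, the farthest collagen peak within the limit. The nearest peak beyond the limit lay 104418 bp from Col8a1. Assignment to the nearest gene does not show that a region acts on that gene.

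Type III collagen, made of Col3a1 chains, is found with type I in soft tissues and marrow stroma, and Col3a1 was the fibrillar gene with the fewest peaks. Col3a1 (gene 12825, chromosome 1, 45311538 to 45349706) had 5, 2 and 3 peaks (PBS) against 1, 3 and 1 (DOX). The groups overlapped, since DOX replicate 2 had 3 peaks. A peak at the start (45311489 to 45311758) was listed in PBS replicates 1 and 3 and in none of the DOX libraries, and the full deposited lists added 1 DOX library. It ranked 64925 and 55884 among the 65462 peaks of these lists, so it lay near the bottom in PBS replicate 1. The only Col3a1 region held by all 6 libraries lay inside the gene, 2626 bp from the start. Its neighbour Col5a2 had 6, 5 and 4 peaks (PBS) against 6, 5 and 5 (DOX), with a peak at a gene end (45502318 to 45503400) in every library.

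Types V and XI collagen start and set the width of fibrils. Col5a1 had the most peaks of the fibrillar class, 18, 16 and 19 (PBS) against 18, 19 and 19 (DOX), and a region of 5089 bp covered its start (chromosome 2, 27885580 to 27890668). Col5a3 had 11, 9 and 8 (PBS) against 11, 10 and 10 (DOX). Among the cartilage collagens, Col2a1 had 6, 6 and 7 (PBS) against 7, 6 and 4 (DOX), with a gene end open in all libraries, and Col11a1 and Col11a2 had 4 to 5 each. Col27a1 had 17, 17 and 16 (PBS) against 15, 16 and 15 (DOX), and Col24a1 16, 13 and 10 (PBS) against 14, 13 and 12 (DOX). For each of these genes the ranges of the groups overlapped or met.

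**Figure D2:**
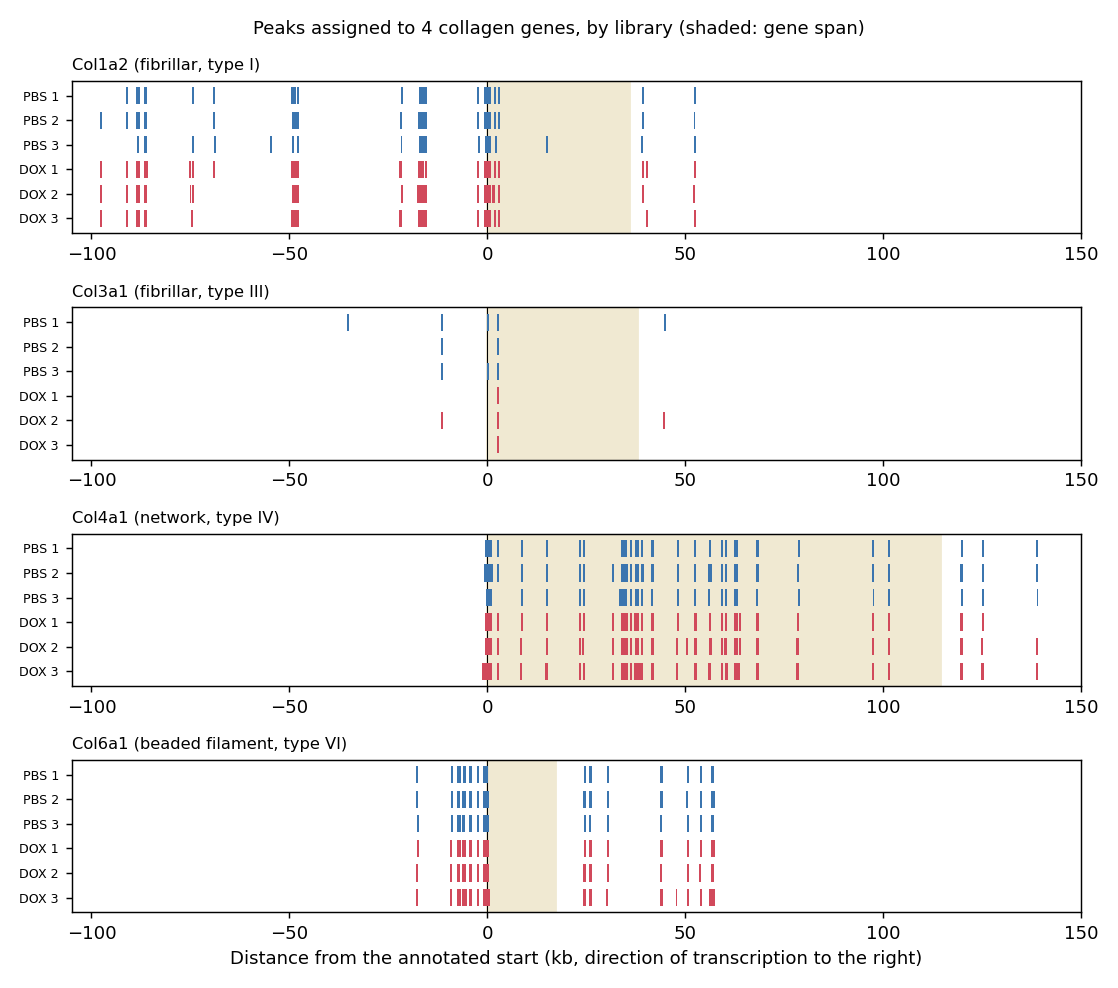
Peaks assigned to Col1a2, Col3a1, Col4a1 and Col6a1 (bars, blue PBS, red DOX, 1 row per library) by distance in kb from the annotated start, with the gene span shaded and very short peaks drawn at a minimum width. Col1a2 and Col6a1 have most of their peaks outside the span, Col4a1 inside it, and Col3a1 has 1 to 5 peaks per library.

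The network class was divided between open and nearly empty genes. Col4a1 and Col4a2 encode the chains of the type IV collagen found in all basement membranes. Col4a1 (gene 12826, chromosome 8, 11198423 to 11312889) had 24, 25 and 24 peaks (PBS) against 25, 27 and 25 (DOX), and Col4a2 (gene 12827, chromosome 8, 11312805 to 11449287) had 14, 18 and 12 (PBS) against 17, 18 and 20 (DOX). The groups met at 25 peaks in Col4a1 and overlapped in Col4a2. These genes are transcribed away from each other, their annotated starts are 21 bp apart, and a single region (11311509 to 11314201) covered both. The region was counted for Col4a1. Only 3 Col4a1 peaks had a summit inside 2 genes and went to it as the shorter gene. Inside the Col4a1 span there were 19.4 peaks per 100 kb, against 11.4 in Col4a2.

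The other type IV chains, which replace the first pair in the basement membranes of kidney, lung, skin and smooth muscle, were almost without peaks. Col4a3 and Col4a5 had none, Col4a4 had 1 in DOX replicate 1 only, and Col4a6 had 1 in each library. In the full deposited lists, which reach weaker peaks, the sums over all 6 libraries were 2 for Col4a3, 12 for Col4a4, 0 for Col4a5 and 6 for Col4a6. The starts of Col4a5 and Col4a6 lie 1343 bp apart, also as a divergent pair, and had no peak within 1 kb. Type VIII collagen, a hexagonal lattice of vessel walls and the cornea, had open starts in both of its genes: Col8a1 had 18, 20 and 16 peaks (PBS) against 18, 18 and 18 (DOX), and Col8a2 7, 7 and 8 (PBS) against 6, 6 and 6 (DOX). Col10a1, the marker of hypertrophic cartilage, had no peak in any deposited list.

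Among the FACITs, Col12a1, Col14a1 and Col16a1 had a peak at a start or gene end in all 6 libraries. The region with its summit at the Col12a1 end (79721089 to 79721384) ranked 49150, 46791 and 65434 in PBS and 50805, 50988 and 40945 in DOX. In PBS replicate 3 it thus lay near the bottom of the list. No Col14a1 peak had its summit in the 1 kb around a gene end in any library. Col12a1 led with 20, 19 and 25 peaks (PBS) against 20, 18 and 17 (DOX), which overlap. Col14a1 had 6, 6 and 7 (PBS) against 7, 6 and 6 (DOX), and Col16a1 8, 8 and 7 (PBS) against 8, 8 and 8 (DOX). Type IX collagen coats the type II fibrils of cartilage. Of its 3 chains Col9a1 had 1 peak in each library, Col9a2 2, 2 and 2 (PBS) against 3, 3 and 2 (DOX), and Col9a3 none, also in the full lists. Col20a1 had none, Col19a1 1 peak in DOX replicates 2 and 3, and Col22a1 5 to 6 peaks without an open end.

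In the remaining classes, type VI collagen, which forms beaded filaments around cells, had open starts in all 6 libraries for Col6a1, Col6a2, Col6a4 and Col6a5. Col6a1 had 15, 14 and 15 peaks (PBS) against 14, 14 and 15 (DOX), and Col6a2 9, 8 and 7 (PBS) against 8, 8 and 8 (DOX). No summit lay inside the Col6a1 span. Col6a3, the third chain of the classical molecule, had 11, 9 and 6 peaks (PBS) against 9, 8 and 7 (DOX), with a peak at the start in the 3 PBS libraries and DOX replicate 2 (90843760 to 90844217 on chromosome 1). Col6a5 had 6, 4 and 6 peaks (PBS) against 5, 7 and 9 (DOX), and Col6a4 and Col6a6 had 2 to 3 and 5 to 9. Transmembrane Col23a1 and Col25a1 had 18 to 22 and 18 to 21 assigned peaks and spans of 294.2 and 419.5 kb, while Col13a1 and Col17a1 had 2 to 4 and 3 to 4 and no open start. The multiplexins Col15a1 and Col18a1, basement membrane collagens whose ends can be cut off as small inhibitors of vessel growth, had 9 to 12 and 11 to 16 peaks. Col15a1 was open at the start in all 6 libraries, but its start region ranked 63964 in PBS replicate 2, near the bottom of that list. Col7a1, the anchoring fibril gene of skin, had 0 to 1, Col26a1 5 to 8, and Col28a1 1 to 3. The groups overlapped in each of these genes but Col23a1.

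Promoters of open and closed collagen genes are described here by base composition, with no test. RefSeq windows of assembly GRCm38.p6, each from 250 bases before to 50 after a start, were available for 35 members (38 windows). The 21 windows of members open in all 6 libraries had a median CpG observed to expected ratio of 0.543, the 12 windows of members open in none 0.373, and all 21044 windows of protein-coding genes 0.574. The 21 open windows came from 19 genes and are not all separate stretches of DNA. Those of Col4a1 and Col4a2 overlap, as do the windows of Col6a2 with each other. Motifs were searched on both strands. GGGCGG, the core of a GC box, was in 17 of the 21 open windows and 3 of the 12 closed ones, against 46.7% of all windows. TATAAA was in 0 of the 21, in 2 of the 5 windows of members open in some libraries and in 3 of the 12, against 12.7% of all. CCAAT was in 9 of the 21 and 4 of the 12, against 38.5%. TGANTCA, the AP-1 site, was in 1 of the 38, against 7.04%. A match is a description of the letters and not a binding site.

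The 160 bases before the annotated starts of 5 members are shown to set open against closed promoters, 5′ to 3′ on the coding strand, with the GC box, CCAAT box or TATA box letters spelled out above in capitals. Col5a1 and Col1a2 were open in all 6 libraries, Col3a1 in 2, and Col7a1 and Col10a1 in none.
Col5a1 (chr2:27886265-27886424, plus strand): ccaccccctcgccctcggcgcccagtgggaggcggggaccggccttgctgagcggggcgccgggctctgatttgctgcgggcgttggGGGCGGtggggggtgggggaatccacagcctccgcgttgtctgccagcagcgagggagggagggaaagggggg
Col1a2 (chr6:4505458-4505617, plus strand): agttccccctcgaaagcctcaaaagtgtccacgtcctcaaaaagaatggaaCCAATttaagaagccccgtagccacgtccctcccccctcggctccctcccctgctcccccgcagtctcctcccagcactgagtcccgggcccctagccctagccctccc
Col3a1 (chr1:45311378-45311537, plus strand): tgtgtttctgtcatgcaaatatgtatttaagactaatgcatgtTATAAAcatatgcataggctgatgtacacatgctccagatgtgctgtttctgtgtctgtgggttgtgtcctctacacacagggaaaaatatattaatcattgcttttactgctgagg
Col7a1 (chr9:108953426-108953585, plus strand): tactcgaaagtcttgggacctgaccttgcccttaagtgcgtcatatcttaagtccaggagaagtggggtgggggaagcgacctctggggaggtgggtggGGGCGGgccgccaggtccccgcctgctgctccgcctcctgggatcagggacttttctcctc
Col10a1 (chr10:34389821-34389980, plus strand): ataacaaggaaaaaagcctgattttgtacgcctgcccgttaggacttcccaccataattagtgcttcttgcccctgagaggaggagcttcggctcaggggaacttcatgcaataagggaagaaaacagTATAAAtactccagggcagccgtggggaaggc
In its whole window Col5a1 held 34 CpG, Col1a2 13, Col3a1 0, Col7a1 12 and Col10a1 6. Col10a1 and Col3a1 had TATAAA, 32 and 117 bases before the start. Col7a1 had a GC box and no peak at the start, so the letters did not sort the members throughout.

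The strength of collagen regions was compared by rank; in pooled cells, more cells with an open region and a more open region in each cell cannot be told apart. Of 408 union regions of collagen genes, 259 (63.5%) were held by all 6 libraries, and the share over all 78613 regions was 62.5%. The strongest peak of each shared region was ranked by −log10 p among the 49098 shared regions of all genes, and a percentile near 100 marks the strongest. The median collagen region stood at the 38.9th percentile. The 23 regions with their strongest summit at a start or gene end had a median of 70.6, and the rest a median of 36.5. By class the medians were 41.5 for fibrillar, 35.7 for network, 39.1 for FACIT and 32.7 for the other genes.

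Only 8 of the 259 regions had a median percentile of 90 or more. At the start of Col5a1 the percentiles were 96.7, 97.4 and 96.4 in PBS and 96.8, 97.0 and 97.6 in DOX. A region 9019 bp from Col5a3 (chromosome 9, 20760711 to 20761518) was at 98.3, 97.3 and 97.2 in PBS and 97.0, 97.0 and 98.0 in DOX. Both stayed within 2 percentile points in all libraries. The strongest Col4a1 region was not at the start but 34541 bp inside the gene (11277327 to 11279091), at 95.6, 96.0 and 96.1 in PBS and 96.4, 94.7 and 94.1 in DOX. The shared start of Col4a1 and Col4a2 was at 73.5, 77.4 and 71.3 in PBS and 78.4, 77.6 and 78.1 in DOX. The other 5 were the start of Col6a2 (76623079 to 76623827 on chromosome 10), a region 25362 bp before it, a region 39691 bp from Col6a1, and regions inside Col4a2 (11327131 to 11328683) and Col27a1 (chromosome 4, 63310250 to 63312253). Col6a2 and Col6a1 are neighbours, and both distant regions lie in the stretch between them.

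The start of Col1a2 was at 75.2, 78.8 and 76.2 in PBS and 76.9, 78.8 and 81.7 in DOX. For Col1a1, whose start was not in the promoter table, a region covered the end of the span with the lower coordinates (94935915 to 94938118). This region was at 76.0, 72.2 and 73.9 in PBS and 66.1, 69.0 and 68.0 in DOX. There all DOX libraries lay below all PBS libraries, by 0.18 ± 0.07 normal-score units (SE, limma, adjusted p = 0.28). A normal-score unit is 1 SD of the normal distribution onto which the ranks of all shared regions were mapped. It spans more percentile points in the middle of the ranks than at either extreme. A second Col1a1 region, 7288 bp from the gene (94928542 to 94929452), was at 83.3, 79.9 and 81.1 in PBS and 73.4, 78.1 and 74.5 in DOX, a difference of -0.21 ± 0.07 (SE; limma, adjusted p = 0.219). These were the only 2 of the 8 shared Col1a1 regions without overlap, and 4 of the 8 had a positive and 4 a negative difference. Of the 9 shared Col1a2 regions 4 were positive and 5 negative. All DOX libraries lay above all PBS libraries in 2 of these 9 and below in 1, against 9.37% and 9.41% of all regions. For the Col3a1 region inside the gene the percentiles were 28.7, 18.8 and 37.0 in PBS and 20.2, 13.9 and 18.2 in DOX, which overlap.

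**Figure D3:**
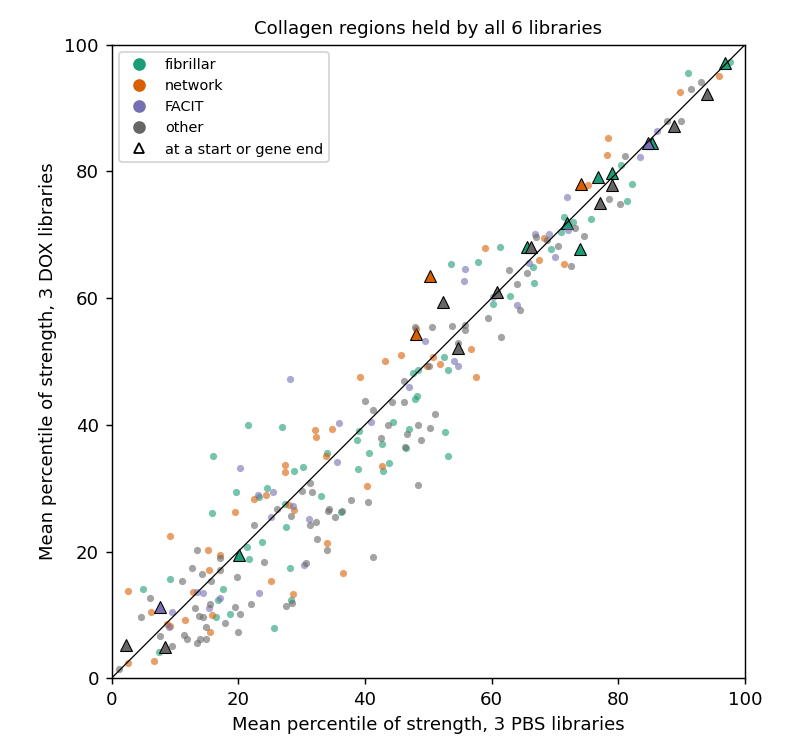
Mean percentile of strength over the 3 DOX libraries against that over the 3 PBS libraries for the 259 collagen regions held by all 6 libraries, coloured by class, with triangles for regions at a start or gene end and a line of equality. Points lie along the line, with the widest scatter below the 50th percentile, and the start of Col5a1 is at the upper right.

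No collagen region and no collagen gene passed the test of DOX against PBS. For ranks, limma with Benjamini-Hochberg adjustment over the 49098 regions called 0 of the 259 collagen regions higher and 0 lower, and 0.0% of all regions in each direction. At an unadjusted p under 0.05 there were 33 collagen regions (12.7%), 15 higher and 18 lower, against 13.1% of all regions. By class they were 13 of 72 fibrillar (18.1%), 9 of 52 network (17.3%), 2 of 36 FACIT (5.56%) and 9 of 99 other regions. The differences between classes were not tested. In 20 collagen regions (7.72%) all DOX libraries ranked above all PBS libraries and in 24 (9.27%) below. The shares over all regions were 9.37% and 9.41%, so those of the collagen regions were near the background. The median difference was -0.04 normal-score units over the collagen regions and 0.00 over all regions. By class it was -0.04 for fibrillar, 0.07 for network, -0.01 for FACIT and -0.08 for the other genes. Of the 99 regions of other genes 29 had a positive and 70 a negative difference. The balance was 30 to 22 in the network class, where 8 regions had all DOX libraries above all PBS libraries and 0 the opposite.

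Those 8 included 6 of the 22 shared regions of Col4a1, 1 of Col4a2 and 1 of Col8a1. The smallest p of any collagen region was 62876 bp inside Col4a1 (11249040 to 11250615). Its percentiles were 81.4, 77.8 and 75.7 in PBS and 82.6, 86.0 and 87.2 in DOX, a difference of 0.27 ± 0.07 (SE; limma, adjusted p = 0.161). The next was 5238 bp from Col26a1 (chromosome 5, 136888496 to 136889312), at 33.3, 43.6 and 46.9 in PBS and 10.4, 14.9 and 32.0 in DOX, a difference of -0.70 ± 0.21 (SE; limma, adjusted p = 0.187). A region inside Col12a1 (chromosome 9, 79680421 to 79681688) was at 28.7, 30.3 and 25.8 in PBS and 46.3, 57.9 and 37.7 in DOX, a difference of 0.51 ± 0.16 (SE; limma, adjusted p = 0.191). These regions were chosen after their values were seen, and in each the groups did not overlap. In Col25a1 15 of 17 shared regions had a negative difference, with all DOX libraries below all PBS libraries in 4. Over all regions 9.37% lay above in this way and 9.41% below. The counts for Col4a1 and Col25a1 were also picked after the values were seen and were not tested. Regions of 1 gene are not separate replicates. The Col27a1 region named above passed the test when PBS replicate 1 was left out (difference 0.46, limma, adjusted p = 0.0391). In that fit 87 of the 49098 regions of all genes were called higher and 13 lower.

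The number of peaks per gene was tested in the 33 members with a mean of 2 or more peaks. Limma on log2(peaks + 0.5), adjusted over 8792 genes, called 0 of the 33 higher and 0 lower, against 0.569% and 0.546% of all genes tested. Of the 98 genes called genome-wide, 94 had the same number in all libraries of each group, and 0 were called with the spread raised to the mean of similar genes, so this background counts mostly calls without spread. At an unadjusted p under 0.05 there were 4 of 33 (12.1%), against 5.52% of all genes. The median log2 difference was 0.01 over the 33 and 0 over all genes, with 18 members positive, 12 negative and 3 at 0. For 2 members, Col8a2 and Col23a1, all DOX libraries had fewer peaks than all PBS libraries (6.06%, against 2.3% of all genes), and for 0 members more, against 2.74%.

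The lowest values were those of Col3a1, -0.87 ± 0.51 (SE; limma, adjusted p = 0.794), with a 95% interval from -2.25 to 0.51. Col8a2 followed with -0.27 ± 0.06 (SE; limma, adjusted p = 0.425), and then Col12a1 with -0.21 ± 0.13. The highest values were those of Col13a1, with 3, 2 and 2 peaks against 4, 3 and 4 after doxorubicin, 0.57 ± 0.20 (SE; limma, adjusted p = 0.66), of Col6a5, 0.35 ± 0.28, and of Col4a2, 0.33 ± 0.17 (95% interval -0.14 to 0.80). Col23a1, with 22, 22 and 21 peaks (PBS) against 18, 20 and 19 (DOX), had -0.19 ± 0.05 (SE; limma, adjusted p = 0.499). Col27a1 had -0.12 ± 0.04 (SE; limma, adjusted p = 0.66). For type I collagen the 95% interval of the difference was -0.24 to 0.23 for Col1a1 and -0.37 to 0.27 for Col1a2.

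**Figure D4:**
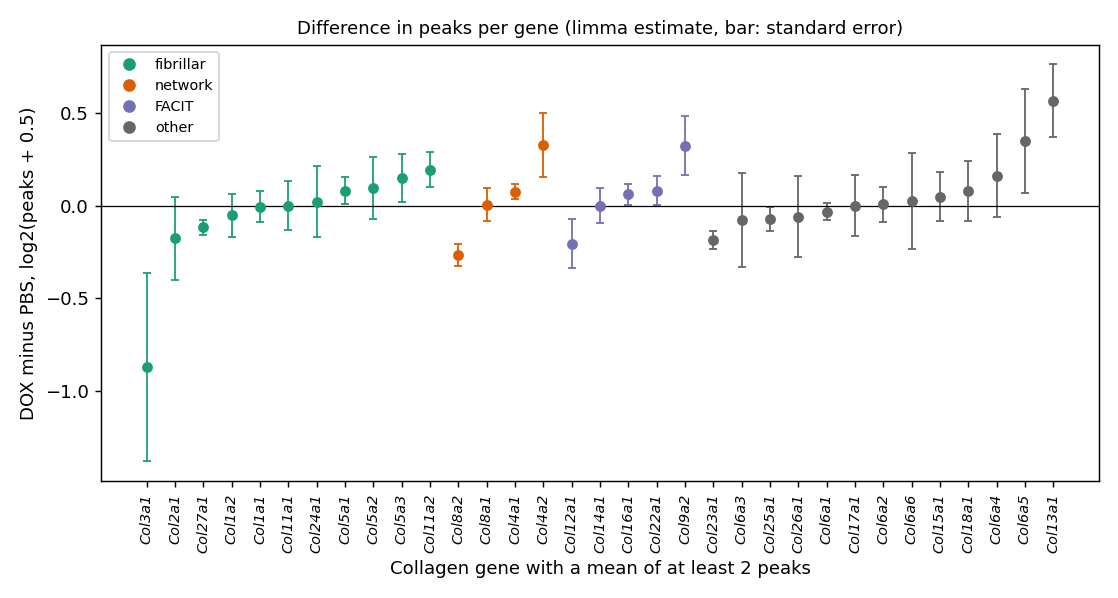
Difference between DOX and PBS in log2(peaks + 0.5) for the 33 collagen genes averaging 2 or more peaks, by class, as the limma estimate with its standard error. Values run from -0.87 for Col3a1 to 0.57 for Col13a1, and none passed the adjusted test.

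Col8a2 was called lower where union regions were counted in place of peaks (-0.21, limma, adjusted p = 7.05e-06) and without PBS replicate 3 (-0.21, limma, adjusted p = 1.31e-05). In both fits its number was the same in all libraries of each group, 7 against 6, so the call rests on the absence of spread. Over all genes these fits called 25 of 8689 and 127 of 8792 lower. Calls of the same kind were Col11a2 without PBS replicate 1 (0.29, limma, adjusted p = 0.00136) and Col9a2 without DOX replicate 3 (0.49, limma, adjusted p = 2.99e-12). There 131 and 99 of 8792 genes were called higher. The Col8a2 region behind the Col8a2 calls lay inside the gene, 4557 bp from the start (chromosome 4, 126291160 to 126291527). It was 1 of 2 collagen regions listed in all PBS libraries and no DOX library. The other lay inside Col25a1 (chromosome 3, 130592311 to 130592633). They ranked 53741 to 61542 and 54485 to 59323 among the 65462 peaks of the PBS lists, and both were in the full deposited lists of all 3 DOX libraries. No collagen region (0 of 408) was found in every DOX list and absent from the PBS lists, against 0.792% of all regions, and the 2 PBS regions stand against 0.303%. With any 1 library other than PBS replicate 3 left out the DOX count was 3 to 9, and without PBS replicate 3 it was 0 and the PBS count 5. Leaving out a library loosens the rule, and the shares over all regions are not given for it, so these counts show no gain or loss.

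Class totals were close to each other in the groups. Fibrillar genes held 115, 100 and 104 peaks (PBS) against 108, 107 and 100 (DOX), and network genes 64, 71 and 61 (PBS) against 68, 70 and 70 (DOX). FACIT genes held 42, 41 and 47 (PBS) against 44, 43 and 40 (DOX), and the other genes 134, 126 and 117 (PBS) against 123, 128 and 124 (DOX). Over all members PBS libraries averaged 341 ± 13.2 peaks and DOX libraries 342 ± 7.09 (SD, n = 3 each), and the groups overlapped in every class. In the deposited lists scaled to their totals the difference over all members was -10.95 peaks, and that of the network class changed sign, from 4 to -1.66. With 1 library left out the difference ran from -4.83 (without PBS replicate 3) to 8.17 (without PBS replicate 1) over all members, from -4.5 to 3 for fibrillar, 1.83 to 6.83 for network, -2.17 to 0.83 for FACIT and -5 to 3.5 for the other genes. In the strongest 32731 peaks it was -6 over all members and -6.33 for the other genes. Except in the network class, leaving out 1 library changed the sign, so no direction is given for the totals. Summits of collagen peaks lay inside a gene span in 63.4% to 66.8% of cases, against 58.0% to 59.4% of all assigned peaks.

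Genes that make and organise collagen were examined in 4 lists, and none of their tested genes passed in either direction. Of 23 genes for modification and folding, such as Serpinh1, the collagen chaperone, and the hydroxylases of the P4ha and Plod families, 22 to 23 had a peak at a start or end in each library. Of the 17 tested 0 were called and 1 had an unadjusted p under 0.05, with a median log2 difference of 0. Of 13 genes for processing and crosslinking, which hold Lox and the propeptide-cutting Adamts2, 10 to 11 had such a peak. Of the 8 tested 0 were called and 1 had an unadjusted p under 0.05, with a median of -0.09. The 12 proteoglycans and organisers, among them Dcn and Sparc, had 8 to 10 with such a peak and a median of -0.02 over 10 tested, and the 10 receptors, which include the kinases Ddr1 and Ddr2, had 7 and a median of 0.02 over 8 tested. In the latter 2 lists 0 genes had an unadjusted p under 0.05. Ranks gave 0 calls among the 88, 68, 70 and 80 shared regions of the 4 lists, with 11, 13, 15 and 15 at an unadjusted p under 0.05. These are 12.5%, 19.1%, 21.4% and 18.8% of their regions, against 13.1% of all regions, so the share was above the background in the latter 3 lists; that difference was not tested. Among the marker lists 1 gene was called, Vcam1, an adhesion molecule and MSPC marker, with 11, 11 and 11 peaks (PBS) against 14, 14 and 15 (DOX) (log2 difference 0.37 ± 0.03 SE; limma, adjusted p = 0.0193). It was 1 of 10 MSPC markers tested, and 0 of 7 osteoblast, 4 chondrocyte, 7 endothelial and 3 blood markers tested were called, against 0.569% of all genes called higher. Its number did not vary among the PBS libraries, and the call was lost when the spread of each gene was raised to the mean of similar genes.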

How the data were processed

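The authors deposited a peak list for each of the 6 libraries, called in single libraries, with build mm10; MACS2 2.2.7.1, Bowtie2 2.4.5 and Picard 2.10.9 are among the tools in the submitters' processing notes, with settings not given in the sources used here. Per the file headers of the format, the deposited columns hold the fold enrichment (a ratio), the −log10 p and −log10 q, a score and positions; each is the authors' own value of 1 peak and was used to rank peaks within their list. Depth was solved from the deposited fold values, whose steps gave a constant background and whole pileups to within 0.05 in 100% of peaks with a fold under 60.

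On chromosomes 1 to 19 and X the 65462 peaks of highest −log10 p, as many as the shortest list holds, were kept. Genes came from RefSeq GRCm38.p6; a summit inside 2 genes went to the shorter one (3 collagen peaks). Regions merge peaks that overlap by at least 1 bp, and the best-ranked summit gives a region its gene. Peaks per gene (mean of at least 2, pseudocount 0.5) and normal scores of ranks were tested with limma 3.58.1 (trend, robust) in R 4.3.3 at an adjusted p of 0.05, and both steps were tested on simulated data. There the peaks-per-gene test called unchanged genes more often than its threshold allows, so its calls are less certain than their adjusted p-values. It also missed changes, recovering 153 of 200 changed genes (76.5%). The changed genes were drawn only from genes with many peaks, so how often it misses a change in members with few peaks is not known. The rank test missed few changed regions, but each was shifted by 1 normal-score unit, more than any collagen region differed between the groups. Smaller shifts were not simulated, so how many of them the test would miss is not known. The simulated spread was the same in every region, whereas in the data the SE was, for example, 0.064 in 1 Col8a1 region and 0.759 in another. Misses among regions of wide spread are therefore not known either. Counts of regions listed in 1 treatment, class totals and open starts have no test. Lists with fewer than all libraries, the deposited lists, the strongest 32731 peaks, other limits and windows, and a replicate block were alternatives.

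The members, gene lists and tests were chosen with earlier results of these data known. Named genes were the called members, the 3 members with the most peaks in each class, members without peaks, the 3 highest and 3 lowest differences, the chains of types I, III, IV, V and VI, Col2a1, Col10a1, called genes of other lists and regions listed after 1 treatment. Other members and the regions of smallest p were named after their values were seen.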

Additional observations from a re-analysis of the deposited data

How the results depend on the processing

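The absence of peaks in Col4a3, Col4a5 and Col10a1 is the absence of a peak above a library's threshold, and the threshold differs with depth, which differs with treatment. No collagen gene was called with the deposited lists, the strongest 32731 peaks, no filter, a pseudocount of 1, a limit of 20 kb, ties given to the longest gene, the spread raised to the limma trend, or the spread raised to the mean of similar genes, which left 0 calls among all 8792 genes; the settings on ties and on similar genes were chosen after seeing the data. Counting union regions gave 1 lower gene, against 25 of 8689 over all genes. With 1 library left out each time the called genes were 0 to 1 higher (Col11a2 without PBS replicate 1, Col9a2 without DOX replicate 3) and 0 to 1 lower (Col8a2 without PBS replicate 3), each with constant numbers within the groups. Over all 8792 genes these fits called 99 to 146 higher and 69 to 137 lower. For shared regions the strongest 32731 peaks, an overlap of at least 50% and percentile ranks gave 0 collagen calls. Ranking by peak width gave 2 higher (Col4a1, 11259897 to 11260692, and Col12a1, 79607839 to 79609200), against 172 of all 49098 regions. Leaving out libraries gave 0 to 1 higher, against 0 to 87 of all regions. Ranking by width also turned the Col4a1 region at 11249040 to -0.137; the cause of these changes was not tested.

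Replicate numbers are shared by the groups, but the deviations of same-numbered libraries correlated at 0.005, -0.03 and -0.004 over genes and 0.11, -0.10 and 0.04 over regions, so the numbers were not taken to pair the libraries. With a replicate block 0 collagen genes and 0 collagen regions were called higher or lower; over all genes the calls were 21 higher and 16 lower, against 50 and 48, and over all regions 32 and 16, against 0 and 0.

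Collagen regions found after 1 treatment, DOX or PBS, numbered 7 and 1 in the deposited lists, 4 and 0 in the strongest 32731 peaks, and 1 and 5 with summits within 250 bp merged. With 1 library left out they numbered 0 to 9 and 2 to 5, under a rule that then asks for fewer libraries. The deposited lists held 91026 to 100642 peaks in DOX and 65462 to 89264 in PBS. Shares over all regions are not given for these settings, so no direction is read from the counts. The DOX minus PBS total was -10.95 for all members and -1.66 for the network class in the deposited lists. In the other alternatives class totals moved by less than the spread between libraries, with changes of sign, and the genes open at the start in all libraries numbered 18 to 29 in all alternatives.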
